A study of Vitis vinifera with 26 samples.

Results

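The sesquiterpene synthase array of grapevine chromosome 18 was followed in berries around the onset of ripening. It was taken as 10 listed reference identifiers between VIT_218s0001g04280 and VIT_218s0001g05460, and every assembled locus that carries any of them was a member. The array was chosen by its identifiers with units of these libraries already known, namely the low values of controls at 8 weeks after anthesis (WAA) and the difference between treated and control clusters of that week. This gave 6 of 33229 assembled loci and 38 of 90542 isoforms, because VIT_218s0001g05290, VIT_218s0001g05430, VIT_218s0001g05450 and VIT_218s0001g05460 share the locus XLOC_015978, and VIT_218s0001g04280 and VIT_218s0001g04530 share XLOC_015848. The berries came from clusters of 8-year-old field plants of the Vitis vinifera cultivar 'Pinot Noir', sampled at 6, 7 and 8 weeks after anthesis. Treated clusters were kept for 24 h in a bag into which 1-methylcyclopropene (1-MCP), which binds ethylene receptors and keeps them from sensing ethylene, was injected at 5 ppm. Control clusters of the same plants were mock-treated, and all clusters were sampled after 24 h. The 26 libraries comprise 3 control and 3 treated clusters at 6 WAA, 5 and 5 at 7 WAA and 5 and 5 at 8 WAA. A plant with its week was counted as 1 biological replicate, and the labels do not say whether a plant was used in more than 1 week. The labels give replicate numbers and no plant. Control and treated clusters of a week with the same number were therefore assumed to come from 1 plant. The description label calls every library treated, so the groups rest on the source names.

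Sesquiterpene synthases are enzymes of the cytosol that turn farnesyl diphosphate, a product of the mevalonate pathway, into the carbon skeletons of sesquiterpenes. In grapevine they belong to the TPS-a branch of a large terpene synthase family, and chromosome 18 carries a large cluster of tandem copies. In grape berries sesquiterpenes are constituents of the skin wax and aroma, and rotundone, the pepper note of some wines, derives from a sesquiterpene. The deposited files give no gene names, so the enzyme made by each identifier is not stated here.

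The values are locus sums of the deposited isoform values, divided by the constant step of which nearly all values of a library are multiples. The result is called a unit. A unit is not a read, the number of sequenced reads is unknown, and the median mean level of the loci above 0 was 1.0 unit. Levels are not per length and tend to be higher at loci with many isoforms. In whole berry tissue, fewer cells of a type and less RNA per cell cannot be told apart. Libraries held 20368 to 23485 units. Totals at 8 WAA were 20368 to 22076 units in controls and 21369 to 22611 in treated clusters. The clusters of replicate 1 at 8 WAA stood apart from the other plants of that week. Of 94 loci with units in all controls at 7 WAA and in exactly 1 control at 8 WAA, 32 had them in replicate 1 and 10 to 23 in each other replicate. Among treated clusters, 38 of 62 such loci had them in replicate 1 and 5 to 7 in each other replicate. Whether the labelled tissue carries berry markers was not checked, since the files name no genes.

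Of the 10 identifiers, 4 carried units and 6 were listed at 0 in all 26 libraries. The 4 loci XLOC_015857 (VIT_218s0001g04870), XLOC_015859 (VIT_218s0001g05070), XLOC_015863 (VIT_218s0001g05230) and XLOC_015989 (VIT_218s0001g05240) consist of 1 reference isoform each and had no units in any library. Their isoforms are 1715, 273, 1754 and 1686 bases long. A value of 0 is common in these files, where 39.5% of the 2165 loci with 1 isoform of over 1500 and up to 2000 bases, and 72.1% of the 6192 with 1 isoform of up to 500 bases, were listed at 0 throughout. VIT_218s0001g04530 and VIT_218s0001g05450 were also listed at 0, within loci whose other isoforms had units. Array copies resemble each other in sequence, and how the authors assigned reads shared by copies is not given in the sources used here. The split of units among identifiers is therefore uncertain.

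The array signal came almost wholly from XLOC_015978, which held 93.6% of all array units. This locus has 27 isoforms, and its mean of 5.65 units over all libraries ranked 56 among 33229 loci. Among the 77 loci with at least as many isoforms it ranked 30, and their median was 5.27 units. The deposited table places it on chr18_random, the sequence assigned to chromosome 18 without a position, and gives the span 3944610 to 4319279. That span is shared by 29 loci, so it does not mark the ends of this locus, and the genome build is not given in the sources used here.

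In control clusters XLOC_015978 was high at 6 and 7 WAA and low or at 0 at 8 WAA. Control replicates 1 to 3 had 9, 10 and 5 units at 6 WAA. Control replicates 1, 2, 3, 4 and 12 had 9, 10, 7, 8 and 8 units at 7 WAA. At 8 WAA control replicates 1 to 5 had 4, 1, 0, 0 and 0 units, so 3 of 5 controls were listed at 0 and no control of this week reached the lowest one of 6 or 7 WAA. The means were 8.00 ± 2.65 (SD, n = 3), 8.40 ± 1.14 (SD, n = 5) and 1.00 ± 1.73 units (SD, n = 5). Without replicate 1 the controls of 8 WAA averaged 0.25 units and reached at most 1. This difference was known when the locus was chosen, so it is described and not tested. For background, 0.566% of 17123 tested loci were called between 7 and 8 WAA in controls and 1.17% between 6 and 8 WAA (limma, adjusted p under 0.05).

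**Figure D1:**
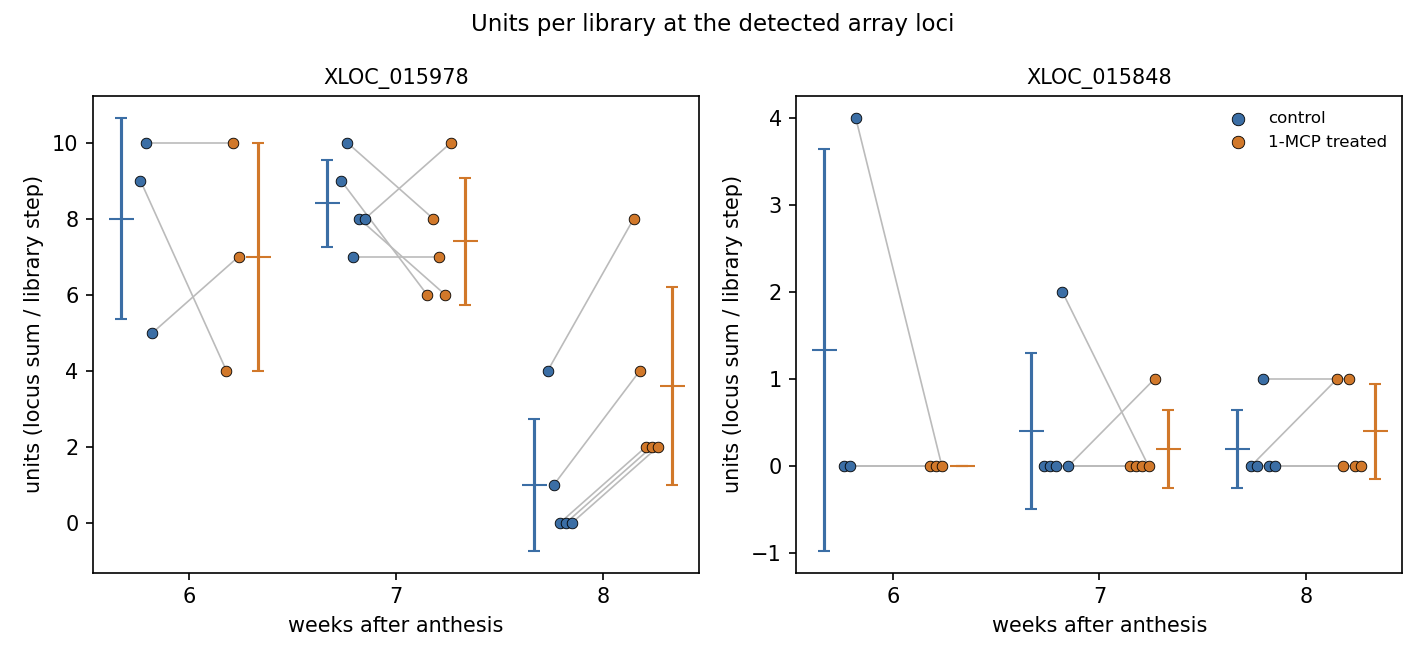
Units per library at XLOC_015978 (left) and XLOC_015848 (right) at 6, 7 and 8 weeks after anthesis. Points are libraries, and grey lines join the control and treated cluster with the same replicate number. Crossbars give the mean with the SD (n = 3 at 6 weeks, n = 5 at 7 and 8 weeks). At XLOC_015978 the controls lie at 0 to 4 units at 8 weeks, where each treated cluster is above the control with its number. XLOC_015848 is at 0 in most libraries.

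Treated clusters had a lower level at 8 WAA too, but all 5 kept units. At 6 WAA treated replicates 1 to 3 had 4, 10 and 7 units. At 7 WAA treated replicates 1, 2, 3, 4 and 12 had 6, 8, 7, 6 and 10 units. At 8 WAA treated replicates 1 to 5 had 8, 4, 2, 2 and 2 units. Replicate 1, whose control was also the highest of its week, lay within the range of 7 WAA, and the other 4 treated clusters lay below it. The means were 7.00 ± 3.0 (SD, n = 3), 7.40 ± 1.67 (SD, n = 5) and 3.60 ± 2.61 units (SD, n = 5).

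The weeks were also compared in treated clusters, but the treated libraries of 8 WAA were in view when the array was chosen, so these values are not independent of that choice. From 7 to 8 WAA the log2 fold change of XLOC_015978 was -1.0 ± 0.34 (SE, limma on log2(units + 1), adjusted p = 0.436), which did not pass the threshold of 0.05, and with the largest isoform in place of the locus sum it was -0.07. From 6 to 8 WAA it was -0.88 ± 0.39 (SE, limma, adjusted p = 0.576). None of the 2 tested member loci was called in either comparison (limma), and XLOC_015978 alone had an unadjusted p under 0.05 in each, as had 1360 and 1403 of all 17137 tested loci. Over all tested loci 0.327% and 0.455% were called. Without treated replicate 1 of 8 WAA the values were -1.28 (limma, adjusted p = 0.0885) and -1.16 (limma, adjusted p = 0.152). Over all alternatives the adjusted p ranged from 0.0885 to 1.0 for the first comparison and from 0.152 to 1.0 for the second. A p above the threshold does not show that the levels were alike.

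The week before, no change was resolved. From 6 to 7 WAA the log2 fold change was 0.10 ± 0.49 in controls (SE, limma, adjusted p = 1.0) and 0.12 ± 0.39 in treated clusters (SE, limma, adjusted p = 1.0). None of the 2 tested member loci was called in these comparisons (limma), against 0.164% of 17123 and 0.146% of 17137 loci. Neither had an unadjusted p under 0.05 (limma), against 928 and 926 of all tested loci. Both signs turned when 1 library of 6 WAA was left out, to -0.17 without control replicate 3 and to -0.18 without treated replicate 1.

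At 8 WAA the cluster treated with 1-MCP had more units than the control with the same number in 5 of 5 pairs. The differences were 4, 3, 2, 2 and 2 units in replicates 1 to 5. The mean difference was 2.60 ± 0.89 units (SD, n = 5), and 2.25 ± 0.50 without replicate 1 (SD, n = 4). The ranges of both groups still overlapped, from 0 to 4 and from 2 to 8 units. This contrast was known when the locus was chosen and is a description only. For background, 0% of 18578 tested loci were called at this week (limma), while 810 had an unadjusted p under 0.05. In 4 of 5 plants the treated library of this week also held more units in all, and after scaling to equal library totals the means were 1.08 ± 1.88 units in controls and 3.60 ± 2.54 in treated clusters (SD, n = 5).

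At 6 and 7 WAA treatment and control were not told apart. At 7 WAA the treated cluster was lower in 3 plants, equal in 1 and higher in 1, with a mean difference of -1.0 ± 2.0 units (SD, n = 5). The log2 fold change was -0.18 ± 0.19 (SE, limma with a block for plants, adjusted p = 1.0). At 6 WAA it was lower, equal and higher in 1 plant each, and the log2 fold change was -0.19 ± 0.24 (SE, limma with a block for plants, adjusted p = 1.0), which became 0.21 without the plant of replicate 1. None of the 2 tested member loci was called at either week (limma), and none had an unadjusted p under 0.05. Over all 18578 tested loci 0.0431% were called at 6 WAA and 0.00538% at 7 WAA, and 1242 and 990 had an unadjusted p under 0.05 (limma). The 1-MCP effect at 7 WAA minus that at 6 WAA was 0.02 ± 0.31 (SE, limma, adjusted p = 1.0), in a test that called 0.0377% of all loci and neither member.

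Ordered by mean, the level of XLOC_015978 ran from 8.40 units in controls of 7 WAA over 8.00 in controls of 6 WAA, 7.40 in treated clusters of 7 WAA and 7.00 in treated clusters of 6 WAA to 3.60 in treated clusters and 1.00 in controls of 8 WAA. The first 4 groups lay within 1 SD of their neighbours in this order. The step from treated clusters of 6 WAA to those of 8 WAA was larger than the SD of either group. The last step, between the groups of 8 WAA, was within the SD of the treated clusters. These SDs leave out the assumed pairs, whose difference at 8 WAA was 2.60 ± 0.89 units (SD, n = 5). That contrast was known when the locus was chosen. Within the groups of 6 and 7 WAA the lowest library had 4 units and the highest 10.

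Most units of XLOC_015978 belonged to splice forms that differ from the reference models. The deposited table marks 4 of the 27 isoforms as matching a reference transcript and 23 as sharing at least 1 junction with it (class code j). The 23 held 99.3% of the units. Of the 4 reference isoforms, only that of VIT_218s0001g05430 had any units, 1 unit in control replicate 1 of 8 WAA. By nearest identifier, VIT_218s0001g05290 took 82.4% of the units with 21 isoforms, VIT_218s0001g05430 13.3% with 2 and VIT_218s0001g05460 4.3% with 3. By transcription start, 20 isoforms of the start TSS22617 held 75.7% and 5 isoforms of TSS22616 held 24.3%, while the other 2 starts were listed at 0.

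A higher level at this locus went with more isoforms with units rather than more units in one of them. Levels near 1 unit are usual in these files, where the median mean level of loci above 0 was 1.0 unit. With isoform values this close to 1 unit, a locus sum can hardly rise in another way, so the pattern was largely fixed beforehand. Other loci were not compared in this way, and the pattern is not read as a trait of this locus. No isoform exceeded 2.01 units in any library, and units per detected isoform averaged 1.05 to 1.25 in the 6 groups. An isoform was counted as detected at 0.5 units or more. Controls had 9, 9 and 4 detected isoforms at 6 WAA, 5 to 9 at 7 WAA with a median of 7, and 3, 1, 0, 0 and 0 at 8 WAA. Treated clusters had 4, 9 and 7 at 6 WAA, 4 to 8 at 7 WAA with a median of 7, and 7, 3, 2, 1 and 2 at 8 WAA. When the largest isoform stood in for the locus sum, the log2 fold change from 6 to 8 WAA in treated clusters turned from -0.88 to 0.16.

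**Figure D2:**
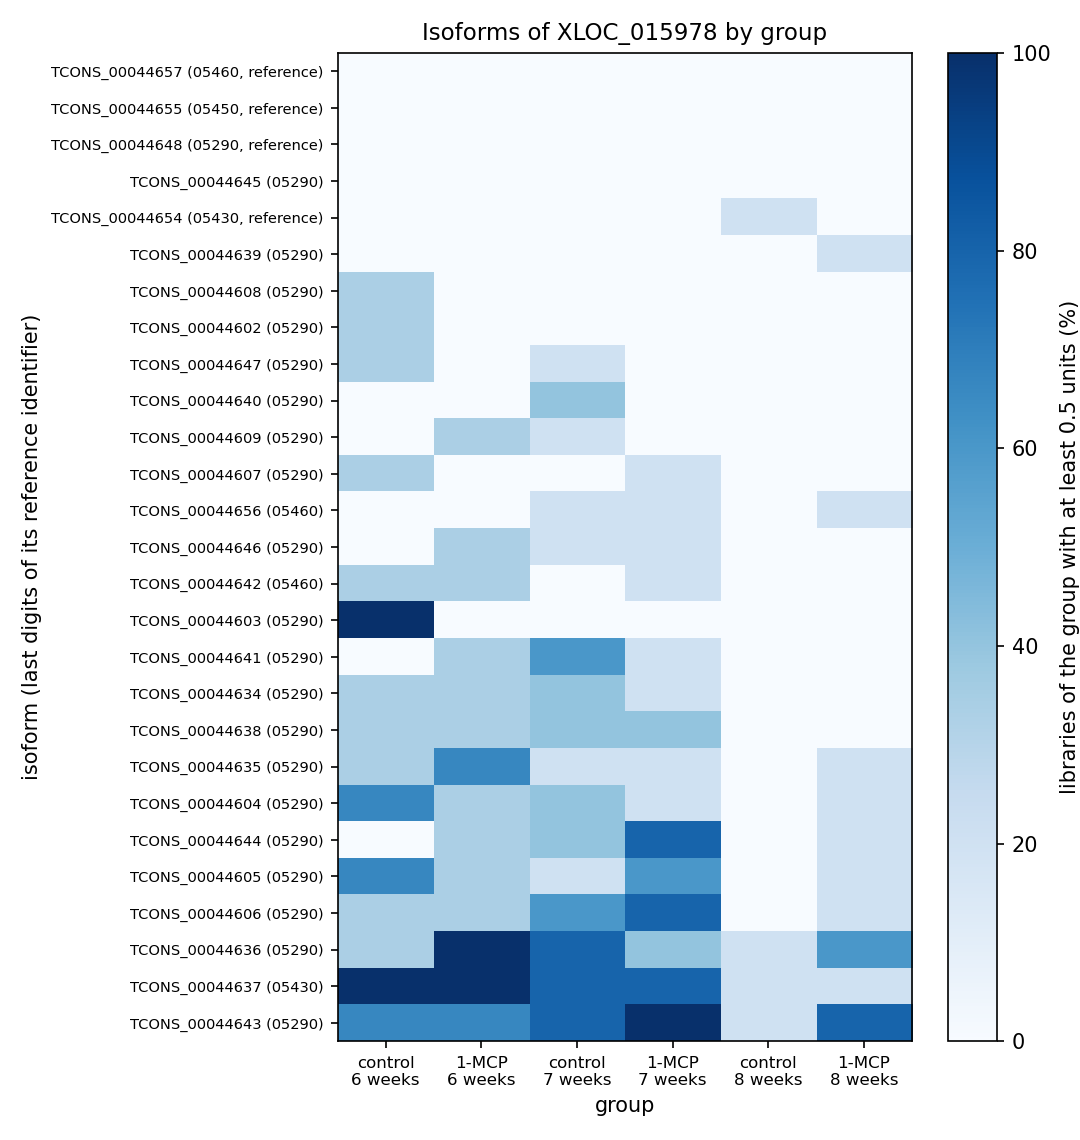
Share of the libraries of each group (colour, in percent; n = 3 at 6 weeks, n = 5 at 7 and 8 weeks) with at least 0.5 units of each of the 27 isoforms of XLOC_015978, ordered by the number of libraries. The column of controls at 8 weeks is nearly empty, with 4 isoforms detected in any library, against 10 in treated clusters of that week and 14 to 16 in the other groups.

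The isoforms changed from library to library. Of the 27, 23 were detected in at least 1 library, 4 of them in exactly 1, and 4 in at least 10. TCONS_00044643, with the nearest identifier VIT_218s0001g05290 and 2081 bases, was detected in 18 libraries, the most of any. At 7 WAA 4 of 5 controls and all 5 treated clusters had it, and at 8 WAA 1 of 5 controls and 4 of 5 treated clusters. TCONS_00044637, with the nearest identifier VIT_218s0001g05430 and 1716 bases, was detected in 16 libraries. It was present in all 6 libraries of 6 WAA, in 4 of 5 of each group at 7 WAA and in 1 of 5 of each group at 8 WAA. TCONS_00044636, with the nearest identifier VIT_218s0001g05290 and 1754 bases, was detected in 14 libraries, among them 1 of 5 controls and 3 of 5 treated clusters at 8 WAA. TCONS_00044603, singled out after its values were seen, was at 1 unit in 3 of 3 controls of 6 WAA and in 0 of the 23 other libraries, the treated clusters of the same plants included. No test was made of single isoforms.

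At 8 WAA few forms remained. In the 16 libraries of 6 and 7 WAA 21 isoforms were detected, and in the 10 libraries of 8 WAA 11, of which 9 were in both sets. Units of the start TSS22617 averaged 6.67 ± 2.31 in controls of 6 WAA (SD, n = 3), 6.20 ± 1.10 at 7 WAA and 0.60 ± 1.34 at 8 WAA (SD, n = 5). In treated clusters they averaged 4.75 ± 1.56 (SD, n = 3), 6.15 ± 1.65 and 2.46 ± 3.20 (SD, n = 5). Units of TSS22616 averaged 1.33 ± 0.58 (controls) and 2.25 ± 1.56 (treated clusters) at 6 WAA (SD, n = 3). At 7 WAA they averaged 2.2 ± 1.30 (controls) and 1.25 ± 1.34 (treated clusters), and at 8 WAA 0.40 ± 0.55 and 1.14 ± 0.77 (SD, n = 5). Units of both starts were thus lower in controls at 8 than at 7 WAA, while those of TSS22616 in treated clusters differed between these weeks by less than their SD.

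XLOC_015848, the other array locus with units, had them in 6 of 26 libraries. It spans VIT_218s0001g04280, VIT_218s0001g04530 and the unlisted VIT_218s0001g04490, in 7 isoforms on chr18_random with the span 3795997 to 3881478, which 6 loci share. Control replicates 1 to 3 of 6 WAA had 0, 0 and 4 units, and the treated clusters of these plants were listed at 0. At 7 WAA 1 control (replicate 4) had 2 units and 1 treated cluster (replicate 12) had 1. At 8 WAA control replicate 3 and treated replicates 1 and 3 had 1 unit each. All units belonged to the 5 isoforms of VIT_218s0001g04280. The libraries with units were scattered over 5 of the 6 groups, and the log2 fold changes ran from -0.77 to 0.66 over the 7 tested comparisons, the difference between the 1-MCP effects of 7 and 6 WAA included (limma, adjusted p between 0.892 and 1.0). The control of 6 WAA with 4 units here was the control with the fewest units, 5, at XLOC_015978 at that week.

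The identifiers of the array are interleaved with those of other genes. The stretch from VIT_218s0001g04280 to VIT_218s0001g05460 holds 102 identifiers in 95 loci, of which the files place 59 on chr18 and 36, all members included, on chr18_random. Of the 36 on chr18_random, 31 were listed at 0 in all libraries, against 6 of the 59 on chr18. The 36 are shorter, with a median longest isoform of 503 bases against 2122, and 31 of them have 1 isoform. Of the 7 on chr18_random with an isoform over 1500 bases, 5 were listed at 0, and of the 39 such loci on chr18 none was. Over the whole series 54.4% of 296 loci on chr18_random and 30.8% of 2180 on chr18 were listed at 0 throughout. Sequence similarity among the copies may bear on these zeros and its part was not tested.

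**Figure D3:**
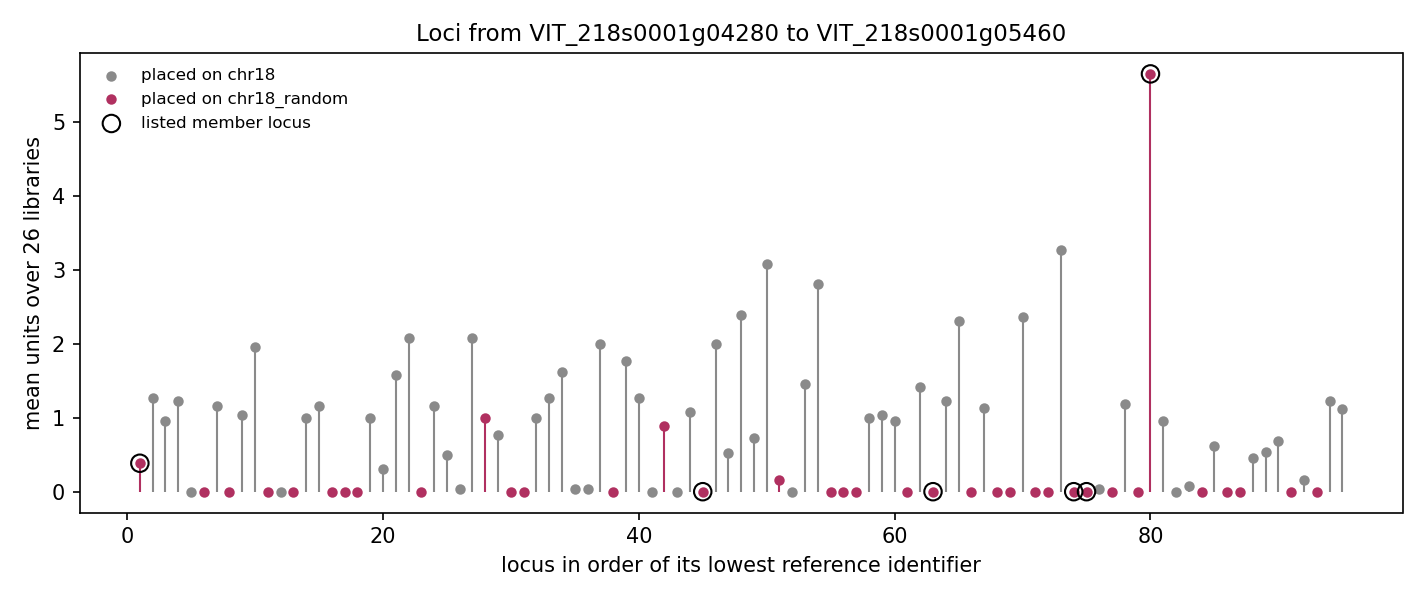
Mean units over 26 libraries (vertical axis) of the 95 loci from VIT_218s0001g04280 to VIT_218s0001g05460 in the order of their lowest identifier (horizontal axis). Red points are loci placed on chr18_random, grey points loci placed on chr18, and circles mark the 6 member loci. XLOC_015978 stands at 5.65 units, and the highest locus placed on chr18 at 3.27.

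Besides the members, 3 unlisted loci of chr18_random in this stretch had units, all at low levels. XLOC_015975 (VIT_218s0001g04690 and VIT_218s0001g04820) averaged 0.33 (controls) and 1.33 units (treated) at 6 WAA. It averaged 1.20 units in both groups of 7 WAA, and 0.80 (controls) and 1.00 (treated) at 8 WAA. XLOC_015980 (VIT_218s0001g04830) averaged 0.67 (controls) and 1.33 units (treated) at 6 WAA, 1.20 and 0.80 at 7 WAA, and 0.60 and 0.80 at 8 WAA. XLOC_015982 (VIT_218s0001g04950) had at most 1 unit in any library. Of the 50 to 53 loci of the stretch that passed the filter in each tested comparison, none was called (limma). The share called over all tested loci was only 0.00538% to 0.455%, so nothing is read from this. Median log2 fold changes of the stretch ran from -0.11 to 0.00, beside 0.00 over all tested loci.

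The supply routes of terpenes were described with lists of identifiers recalled from the grapevine literature, whose membership the files do not allow to check. The mevalonate route, which makes farnesyl diphosphate in the cytosol, was represented by 10 identifiers in 12 loci, of which 7 had units in all 26 libraries. Their summed level in controls was 16 ± 1.0 units at 6 WAA (SD, n = 3), 13.6 ± 2.07 at 7 WAA and 16.4 ± 1.52 at 8 WAA (SD, n = 5). In treated clusters it was 17.3 ± 1.53 (SD, n = 3), 18.2 ± 1.92 and 15.0 ± 1.73 units (SD, n = 5), so the widest gap between treated and control clusters was at 7 WAA. These sums were not tested. Much of the gap at 7 WAA lay at 1 locus, XLOC_015618, with 2.66 ± 1.13 units in controls and 5.30 ± 0.97 in treated clusters (SD, n = 5). This locus has 50 isoforms, and its identifier VIT_218s0089g00590 also enters the sum through XLOC_014570 and XLOC_014571. XLOC_014570 carries the unlisted VIT_218s0089g00520 and VIT_218s0089g00560 as well. Units of the listed loci were not split by identifier, so the sums can include units of unlisted genes. None of the 10 or 11 tested members was called in any of the 6 tested comparisons (limma), against 0.00538% to 0.455% of all tested loci. At such shares a list this short would rarely hold a call, so nothing is read from it. The list medians ran from 0.00 to 0.12 on the log2 scale. The loci of VIT_219s0015g01010, VIT_204s0023g00600 and VIT_203s0038g04100 stood at 1 unit in every library. XLOC_006938 (VIT_213s0106g00790 and the unlisted VIT_213s0106g00810) was singled out after its values were seen. It had 3 units in each of the 3 controls of 6 WAA, 1.20 ± 0.45 at 7 WAA and 1.80 ± 0.84 at 8 WAA (SD, n = 5). In treated clusters it had 2.33 ± 0.58 (SD, n = 3) and 1.80 ± 0.45 units (SD, n = 5), and 1 unit in all 5 libraries of 8 WAA. From 6 to 8 WAA in treated clusters it did not pass the threshold (limma, adjusted p = 0.0550, and 0.012 to 0.789 over the alternatives). The plastid route, which feeds monoterpenes, was represented by 6 identifiers, of which 5 were found, in 5 loci with units in 24 or more libraries each. None of the 5 was called (limma), and beside the same low shares over all loci nothing is read from that either. The summed level of this list lay between 5.40 and 6.20 units in the 6 groups.

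Most other recalled terpene synthases were listed at 0. Of 24 identifiers, in 24 loci, 20 were listed at 0 in all libraries, among them all 19 with 1 isoform. Over the whole series 34.5% of all loci and 56.6% of loci with 1 isoform were listed at 0 throughout, and with the depth unknown a 0 does not show that a gene is silent. The loci of VIT_213s0067g03770 (XLOC_007476) and VIT_213s0067g03820 (XLOC_006657) had units in all 26 libraries, with group means of 1.60 to 2.2 and 1.00 to 1.40 units. Both loci carry an unlisted identifier as well, VIT_213s0123g00024 and VIT_213s0067g03840. Their units were not split by identifier, so the part of the listed genes is unknown. The locus of VIT_219s0014g04930 was listed at 0 except in 3 of 5 treated clusters of 7 WAA, with 1, 1 and 2 units.

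The locus XLOC_017009 (VIT_219s0014g04900) had units at 6 and 7 WAA only, in controls as well as in treated clusters. At 6 WAA the controls of replicates 1 to 3 had 0, 2 and 0 units, and their treated counterparts 1 unit each. At 7 WAA controls 1, 2, 3, 4 and 12 had 2, 0, 2, 1 and 1 units, and their treated counterparts 2, 1, 2, 2 and 2. All 10 libraries of 8 WAA were listed at 0. From 7 to 8 WAA in treated clusters the log2 fold change was -1.47 ± 0.10 (SE, limma, adjusted p = 3.22e-05) and from 6 to 8 WAA it was -1.0 ± 0.12 (SE, limma, adjusted p = 0.00201). It passed the filter on low values through the weeks in which it had units, so a fall was the only direction open to it. Its calls are therefore a description and not read as support. The 20 loci listed at 0 could not be tested. Over all loci these comparisons gave 32 lower and 24 higher calls, and 52 and 26, which became 17 and 24, and 29 and 27, after scaling to equal library totals. Its units did not vary in treated clusters of 6 and 8 WAA, and 1 treated library of 7 WAA (replicate 2) differed from the others, so its SE rests on that library. The second call was lost with the replicate number as a block (limma, adjusted p = 0.0944), and over its other alternatives the adjusted p stayed under the threshold. Unlike XLOC_015978, it had no units in treated replicate 1 of 8 WAA. Whether the changes of both loci differ was not tested.

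The loci whose values were most like those of XLOC_015978 were also low at 8 WAA, which the way they were picked made likely. Likeness was the Pearson correlation of log2(units + 1) over the 26 libraries, among 13673 loci outside the stretch with at least 0.5 units in at least 10 libraries, and the 5 highest were taken. The highest was XLOC_008661 (VIT_214s0128g00450 and VIT_214s0128g00460, chromosome 14, 3076504 to 3090947) with r = 0.891. It averaged 2.80 ± 0.45 units in controls of 7 WAA, 0.20 ± 0.45 in controls and 1.20 ± 0.84 in treated clusters of 8 WAA (SD, n = 5). XLOC_013243 (VIT_217s0000g05830, chromosome 17, 6357619 to 6361317) had r = 0.882 and was at 1 unit in all 10 libraries of 7 WAA. XLOC_014518 (VIT_218s0041g01510 and VIT_218s0041g01580, chromosome 18, 26310441 to 26416628) had r = 0.867 and averaged 4.0 ± 1.41 units in controls of 7 WAA and 0.20 ± 0.45 at 8 WAA (SD, n = 5). XLOC_021002 (VIT_204s0044g00612 and VIT_204s0044g00616, chromosome 4, 21501155 to 21528626) had r = 0.854, and XLOC_004784 (no identifier, chromosome 12, 18502878 to 18504566) had r = 0.847. All 5 had 1 unit in control replicate 1 of 8 WAA and 0 in the other 4 controls of that week. Over the 16 libraries of 6 and 7 WAA alone the correlations were 0.099 to 0.289, so the likeness rests on the libraries of 8 WAA. With each group's mean taken out, the correlations were 0.582 to 0.785 over the 26 libraries. Differences between replicates within groups thus enter as well, among them those of control replicate 1 of 8 WAA. The loci were picked over these same libraries, which made high values here likely, so nothing more is read from them. The points share their libraries and their weeks.

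**Figure D4:**
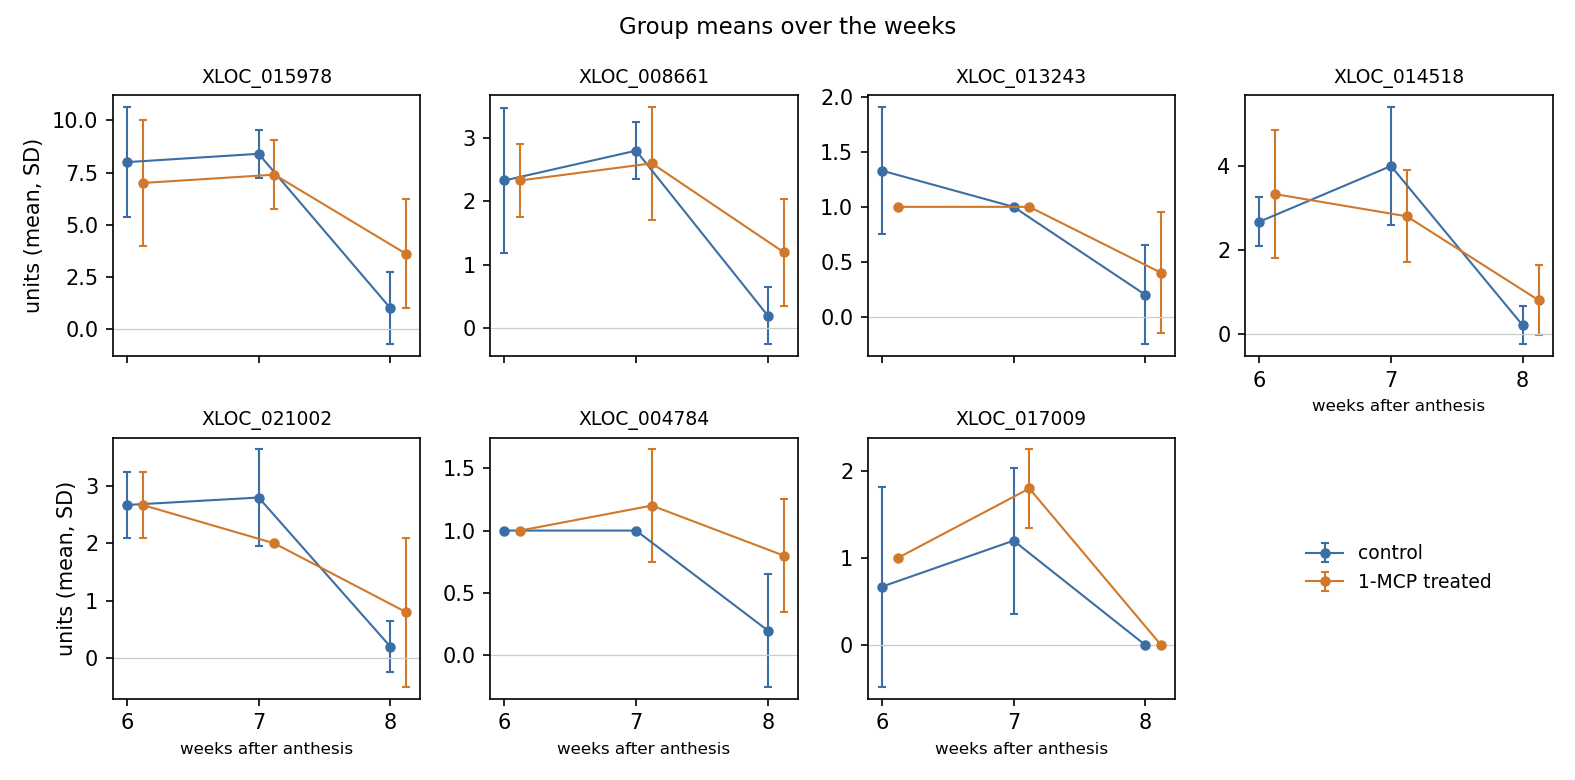
Mean units with SD (n = 3 at 6 weeks, n = 5 at 7 and 8 weeks) of XLOC_015978, the 5 loci most like it and XLOC_017009 in control and treated clusters. The first 6 loci keep a mean of 0.20 to 1.00 units in controls at 8 weeks and a higher mean in treated clusters, while XLOC_017009 is listed at 0 in both.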

How the data were processed

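Berry RNA was read by Illumina deep sequencing, per the series design text. The authors deposited 1 signal value per assembled isoform and library, on a scale they do not state, and a table of isoform attributes whose other measure is length in bases. The submitters' processing notes list Bowtie2 2.2.3. Which program made the values, on which build and annotation, is not given in the sources used here. Each library's step, the commonest value above 0.5, lay between 1.027 and 1.055. Of the locus sums above 0, 97.7% to 98.5% were within 0.01 of a whole number of steps. Units were not treated as reads, so no count test was run, and the depth is unknown.

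Isoform values were divided by the step and summed per locus. Loci with at least 1 unit in at least 3 libraries of a fit were tested on log2(units + 1), which understates changes of low loci. The test was limma 3.58.1 in R 4.3.3 with empirical Bayes moderation, with Benjamini-Hochberg adjustment across every tested locus (threshold 0.05). The 1-MCP effects came from 1 fit of the 26 libraries in which the 13 plants were blocks, since the series design text says that both clusters came from 1 plant. Which clusters shared a plant was assumed from the replicate numbers. Deviations of same-numbered clusters from their group means correlated between -0.09 and 0.092, above 0 in 12 of 13 pairs. Weeks were compared within the 13 control or the 13 treated libraries, with no block. P-values weigh a difference against the spread between clusters of a week or, for 1-MCP, of the treated minus control differences. The scripts were tested on simulated data. The members and lists were chosen with earlier results of these data known. The rule for named loci took all member loci and the 5 loci most like the leading member, and single loci of the lists and of the stretch were named after their values were seen.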

Additional observations from a re-analysis of the deposited data

Results flagged for a closer look

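In 140 groups of 5 libraries, 38 held a library far from the other 4. They cover 35 loci: the members, the 5 loci most like XLOC_015978, the listed loci with units and 3 unlisted loci of the stretch. Chance flags about 1 in 20 groups of continuous values, and that share does not hold here: values are mostly whole units, so 4 equal libraries and 1 other are always flagged. At XLOC_015978 control replicate 1 of 8 WAA stood at 4 units, against 1, 0, 0 and 0 in the others. At XLOC_015848 control replicate 4 of 7 WAA stood at 2 units, treated replicate 12 of 7 WAA at 1 unit and control replicate 3 of 8 WAA at 1 unit, with 0 in the other libraries of each group.

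Control replicate 1 of 8 WAA also stood at 1 unit, with the other controls at 0, at XLOC_008661, XLOC_013243, XLOC_014518, XLOC_021002 and XLOC_004784. These 5 loci were picked for their likeness to XLOC_015978 over the same libraries, so these flags are not separate results. XLOC_008661 was at 2 units in control replicate 2 of 7 WAA and 3 in the others. XLOC_004784 was at 2 units in treated replicate 12 of 7 WAA and 1 in the others, and at 0 in treated replicate 4 of 8 WAA and 1 in the others. In the stretch, XLOC_015975 was at 0 in control replicate 1 of 8 WAA. XLOC_015980 was at 2 units in control replicate 4 of 7 WAA and at 0 in treated replicate 4 of 7 WAA and in treated replicate 4 of 8 WAA. The other libraries of these 4 groups were at 1 unit.

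Among the recalled terpene synthases, XLOC_007476 was at 3 units in control replicate 2 of 8 WAA against 2 in the others. XLOC_006657 was at 2 units in control replicate 3 of 8 WAA against 1, and XLOC_017009 was at 1 unit in treated replicate 2 of 7 WAA against 2. In the mevalonate list, XLOC_014570 was at 1 unit in control replicate 3 of 7 WAA and at 0 in control replicate 4 and treated replicate 1 of 8 WAA, against 2. XLOC_014571 was at 1 unit in control replicate 2 of 8 WAA against 0, and XLOC_004556 at 0 in control replicate 4 of 7 WAA against 1. XLOC_014625 was at 2 units in control replicate 2 of 7 WAA, control replicate 1 of 8 WAA and treated replicate 5 of 8 WAA, against 1. XLOC_007669 was at 1 unit in treated replicate 2 of 7 WAA and treated replicate 1 of 8 WAA, against 2. XLOC_006938 was at 2 units in control replicate 12 of 7 WAA against 1, and at 1 unit in treated replicate 4 of 7 WAA against 2. In the plastid list, XLOC_022956 was at 2 units in treated replicate 5 of 8 WAA and XLOC_013359 at 2 units in treated replicate 4 of 7 WAA, both against 1. XLOC_024954 was at 3 units in treated replicate 12 of 7 WAA against 1, and at 1 unit in control replicate 3 of 8 WAA against 2. XLOC_024592 was at 0 in control replicate 2 of 7 WAA, and XLOC_019111 in treated replicate 3 of 7 WAA and control replicate 2 of 8 WAA, all against 1.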

How the results depend on the processing

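Single log2 fold changes were recomputed for XLOC_015978, XLOC_015848, XLOC_017009 and XLOC_006938. Of 361 values, 352 kept their side of the threshold without a turn of sign, where a value of 0 counted as no turn. Such zeros include XLOC_015848 with 1-MCP at 6 WAA, which went from -0.77 to 0 without the plant of replicate 3. With the largest isoform, the 1-MCP values of XLOC_015848 and XLOC_006938 at 7 WAA went from -0.12 and 0.35 to 0. For XLOC_015978 the sign turned for 1-MCP at 6 WAA to 0.21 without the plant of replicate 1, for controls from 6 to 7 WAA to -0.17 without control replicate 3, and for treated clusters to -0.18 without treated replicate 1 of 6 WAA and, from 6 to 8 WAA, to 0.16 with the largest isoform. For XLOC_015848 with 1-MCP at 7 WAA it turned to 0.25 without the plant of replicate 4. XLOC_017009 passed the threshold from 6 to 7 WAA in treated clusters without treated replicate 2 of 7 WAA (0.58). XLOC_006938 passed it from 7 to 8 WAA in treated clusters without treated replicate 4 of 7 WAA (-0.58) and from 6 to 8 WAA in the fit of only the libraries compared (-0.72). Over the fits that left out 1 library or plant, the values of XLOC_015978 ran from -0.5 to 0.21 for 1-MCP at 6 WAA, from -0.17 to 0.27 for controls and from -0.18 to 0.39 for treated clusters from 6 to 7 WAA, and those of XLOC_015848 for 1-MCP at 7 WAA from -0.4 to 0.25. The cause was not tested.

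Counts of called loci over the whole table were less stable. Raising the filter to 2 units gave 0 for 1-MCP at 6 WAA (8 in the reported fit), 0 at 7 WAA (1), 13 for controls from 6 to 7 WAA (28), and 7 (25), 22 (56) and 42 (78) for treated clusters from 6 to 7, 7 to 8 and 6 to 8 WAA. Fewer loci enter under that filter. Scaling to equal totals, chosen after seeing the data, gave 5 for 1-MCP at 6 WAA and 16 and 9 from 6 to 7 WAA in controls and treated clusters. It moved lower and higher calls from 3 and 5 to 1 and 4, from 19 and 9 to 8 and 8, and from 18 and 7 to 4 and 5 in these comparisons. A pseudocount of 0.1 gave 0 for 1-MCP at 7 WAA. Fits of only the libraries compared gave 139 and 4 for 1-MCP at 6 and 7 WAA, 61 and 68 from 6 to 7 WAA in controls and treated clusters, and 343 from 6 to 8 WAA. Leaving out 1 library or plant gave 14 to 21 and 0 to 2 for 1-MCP at 6 and 7 WAA, 18 to 79 for controls from 6 to 7 WAA, and 20 to 54, 43 to 183 and 54 to 114 for treated clusters from 6 to 7, 7 to 8 and 6 to 8 WAA.

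Without the replicate block for plants, 1-MCP at 6 WAA gave 19 calls and at 7 WAA 1. With the replicate number as a block, which the labels do not tie to a plant across weeks, weeks gave 35 calls for controls from 6 to 7 WAA, and 39, 36 and 63 for treated clusters from 6 to 7, 7 to 8 and 6 to 8 WAA. XLOC_017009 from 6 to 8 WAA was then -1.02 and no longer called, and no other call of the 4 recomputed loci changed under the block. Depth is unknown, and levels of 1 unit show presence only.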
